A study of Rattus norvegicus with 8 samples.

Results

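The proteasome genes described here were the 42 genes, of 22601 listed in each file, whose pathway annotation by the authors includes the proteasome of the rat. The annotation holds 44 genes, and the immunoproteasome subunits Psmb8 and Psmb9 were left out by their gene identifiers. By symbol, the 42 genes comprised 8 alpha and 9 beta subunits of the 20S core, 6 ATPase and 12 non-ATPase subunits of the 19S regulatory particle, 5 activators and inhibitors of the core, and 2 others, Pomp and Ifng. The comparison of interest was that of core and regulatory particle subunits between Con., PTZ and Q808.

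Hippocampal RNA was sequenced from wild type Wistar rats of 180 to 220 g, with 1 library per rat, in 3 groups. The 3 Con. rats received saline and then the solvent of Q808. The 3 PTZ rats received repeated injections of pentylenetetrazole (PTZ), a convulsant that blocks GABA-A receptors, at a dose below the seizure threshold and then a higher last dose, which kindles rats so that later doses give stronger seizures, followed by the solvent. The 2 Q808 rats received the same PTZ injections and then Q808, a candidate anticonvulsant, by daily gavage. Rats of both PTZ-treated groups were given a further low dose of PTZ before they were killed, so that the last injection as well as the kindling separated both groups from Con. The hippocampus was taken from both sides of the brain, and messenger RNA was captured for the libraries.

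The proteasome is the large protease that removes proteins tagged with ubiquitin. Its barrel-shaped 20S core is built of outer rings of alpha subunits, which gate the entry, and inner rings of beta subunits, some of which cut the substrate. The 19S regulatory particle caps the barrel: its non-ATPase subunits bind the ubiquitin chain and strip it off, and its ring of ATPases unfolds the substrate and opens the gate. Other caps, the PA28 and PA200 activators, can take its place. In neurons, proteasomes are known for turning over synaptic proteins.

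Transcription of proteasome genes is known to be raised by Nfe2l1, a factor that binds antioxidant response elements, when proteasome activity is short. RefSeq (GRCr8) held a promoter, from 250 bases before to 50 bases after the transcription start, for 37 of the 42 genes and not for Psma7, Psmb11, Psmd6, Psmd12 and Psmd14. The core of that element, spelled TGACNNNGC and searched on both strands, was found in 8 of the 37 promoters (21.6%) and in 3342 of all 27457 promoters (12.2%). The 8 genes were Adrm1, Psma3, Psmb2, Psmb5, Psmb6, Psmd1, Psmd3 and Psme4, and Psmd1 held 2 matches. The CCAAT box, searched in the same way, was found in 17 of the 37 (45.9%) and in 37.7% of all promoters. Matches in 5 genes whose values are described below, a catalytic pair, another core subunit, a ubiquitin receptor and an activator, are printed 5′ to 3′ on the strand of the gene with 10 bases on each side and the motif, or its reverse complement in Psme4, in capitals. These matches are letters in a window and were not tested as binding sites.
Psmb5, chr15:32047421-32047449, minus strand: cgtgaagctgTGACGTCGCggcgttgccc
Psmb6, chr10:55737854-55737882, plus strand: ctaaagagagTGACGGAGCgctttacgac
Psmb2, chr5:144254980-144255008, plus strand: cccgcgccaaTGACCGGGCggtcgcatat
Adrm1, chr3:187642837-187642865, plus strand: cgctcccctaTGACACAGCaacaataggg
Psme4, chr14:108706578-108706606, plus strand: ggagaaagccGCTGGGTCAcctcctcgcc

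The 8 libraries did not form a uniform set within their groups. The mean log2(FPKM + 0.1) of 6 markers of striatal projection neurons was 6.20 to 7.35 in Con.-3, PTZ-3 and Q808-1 and 1.56 to 2.48 in the other 5 libraries. Markers of dentate granule cells lay at 2.13 to 2.51 in the 3 libraries and at 3.35 to 3.78 in the 5, and those of hippocampal pyramidal cells at 1.03 to 1.48 and at 2.45 to 2.67. Oligodendrocyte markers lay at 8.44 to 9.21 in the 3 libraries and at 7.05 to 7.77 in the 5, and no marker of any list was at 0 in all libraries. Each group holds 1 of the 3 libraries, so results are also given for the 5 libraries with low striatum markers, in which Q808 has 1 library whose spread is taken to be that of the other group. In whole tissue, fewer cells of a type and less RNA per cell cannot be told apart. The part of these markers in the proteasome values was not tested.

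Proteasome subunits were abundant in every library, and their order was nearly the same in all groups. Levels are given in FPKM, fragments scaled by transcript length and by the number of mapped fragments, so that levels can be compared between genes. The mean over the 8 libraries was at least 10 FPKM for 38 of the 42 genes, whose mean levels ran from 12.01 for Psme4 to 160 for Psmc5 with a median of 67.9. Together the 42 genes made up 0.604% to 0.744% of the summed FPKM of a library, with the lowest share in Q808-1 and the highest in PTZ-3. Across the 38 genes, the Spearman correlation of the group means was 0.988 between Con. and PTZ, 0.982 between PTZ and Q808 and 0.977 between Con. and Q808, a description across genes that are not independent and that share libraries. The coefficient of variation over all 8 libraries had a median of 10.3% among the 38 genes and of 15.9% among the 6409 genes with a mean of at least 10 FPKM. The 6409 genes were not matched to the level of the 38. Among the 38, the coefficient was lowest in the regulatory particle, at 6.2% for Psmd4. It was highest for Psme4 at 34.6%, Psmb2 at 19.9%, Psme1 at 18.3% and Psme2 at 16.8%.

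**Figure D1:**
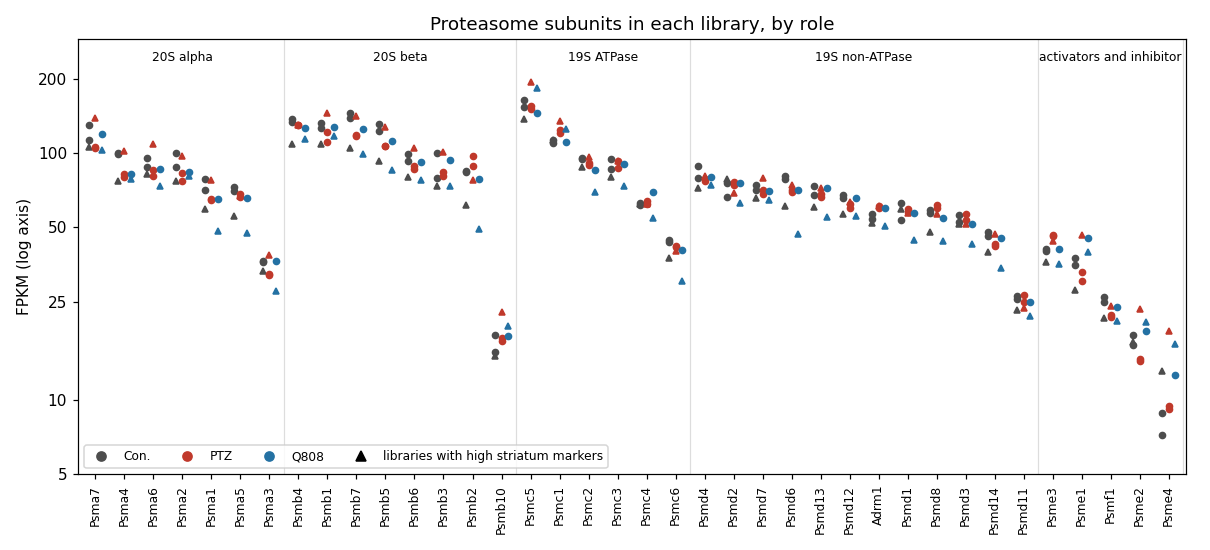
Level of each of the 38 subunits with a mean of at least 10 FPKM, by role; the vertical axis is FPKM on a log scale, each point is 1 library, colours give the group and triangles mark the 3 libraries with high striatum markers. Core subunits other than Psmb10 and Psma3 and the ATPases lie mostly above the non-ATPase subunits, the activators lie lowest, and the groups overlap for most genes.

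The other 4 genes stood at a few FPKM or less. Psma8, an alpha subunit known from testis, was listed at 0 in 6 libraries and at 0.0322 and 0.0369 FPKM in Con.-2 and Q808-2. Ifng, interferon gamma, which induces immunoproteasome subunits, was listed at 0 in all 8 libraries. Psmb11, a beta subunit known from thymus, lay between 0.184 and 0.686 FPKM. Pomp, the chaperone of core assembly, lay between 0.478 and 3.14 FPKM. Psma8 and Ifng did not reach the mean of 0.1 FPKM required for a test, which left 40 genes. Sem1, a small subunit of the regulatory particle, is listed without the proteasome annotation and lay between 64.1 and 88.9 FPKM.

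PTZ against Con. asks whether kindling with PTZ altered subunit levels, and 1 of the 40 proteasome genes, Pomp, passed an unadjusted p of 0.05. It was higher in PTZ, by 2.42-fold. The catalytic subunits and the bulk of the regulatory particle differed by less than the spread between rats. For 34 of the 40 the 95% interval of the difference lay within 1.5-fold, as it did for 28.1% of all 15593 genes tested. All genes tested reach down to a mean of 0.1 FPKM, so this share, here and below, is not matched to the high level of most subunits. At an unadjusted p under 0.05, 3.78% of all genes were called, and 2.53% when more than 1.5-fold change was required as well, which again kept Pomp alone. No proteasome gene passed after Benjamini-Hochberg adjustment in limma, where the smallest adjusted p of the 40 was 0.999. In 4 of the 40 genes the groups did not overlap (9.15% of all genes), and PTZ was the higher group in each: Pomp, Psme3, Psmc1 and Adrm1. Of the 40, 17 were lower in PTZ, against 57% of all genes, and the median difference was 0.020 on the log2 scale, against -0.041 over all genes.

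In the 5 libraries with low striatum markers, 4 of the 40 proteasome genes passed an unadjusted p of 0.05 in this comparison, while 19.5% of all genes did. Pomp was higher, by 0.67 on the log2 scale (unadjusted p = 0.0404, limma). The other 3 were core subunits and were lower in PTZ: the alpha subunit Psma4 by -0.29 (unadjusted p = 0.0109), and the catalytic subunits Psmb7 by -0.26 (unadjusted p = 0.0169) and Psmb5 by -0.25 (unadjusted p = 0.0249). The smallest adjusted p among them was 0.165 (limma, Benjamini-Hochberg). In the pooled fit the differences of these 3 genes were -0.061, -0.036 and -0.014, and PTZ-3 was above Con.-3 for each of these genes.

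Q808 against PTZ asks whether Q808 altered subunit levels in kindled rats. None of the 40 proteasome genes passed an unadjusted p of 0.05 in limma, alone or with more than 1.5-fold change (2.19% and 1.92% of all genes did), and the smallest adjusted p was 0.952. Most point estimates were below 0: 37 of the 40 genes were lower in Q808, against 38.3% of all genes, with a median of -0.12 against 0.097 over all genes. The 3 higher genes were all activators, Psme4, Psme1 and Psme2. In 10 of the 40 genes (15.6% of all genes) the groups did not overlap, and Q808 was the lower group in each: Psma5, Psmb4, Psmb11, Psmc2, Psmd1, Psmd3, Psmd8, Adrm1, Psme3 and Pomp. With 2 Q808 libraries the intervals were wide, and 21 of the 40 lay within 1.5-fold (13.2% of all genes).

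The values below 0 in Q808 against PTZ came largely with 1 library, Q808-1. The median difference of the 40 genes was -0.022 without Q808-1 and -0.26 without Q808-2, and without Q808-2 5 of the 40 genes were at an unadjusted p under 0.05 (9.26% of all genes), all lower, namely Psma5, Psmb2, Psmc6, Psmd6 and Psmd8. Q808-1 had the lowest dentate granule and pyramidal marker levels of the 8 libraries and the highest oligodendrocyte (9.21) and microglial levels (5.06, against 3.84 to 4.35 in the others), and the part of these in the result was not tested. In the 5 libraries with low striatum markers, 25 of the 40 genes were higher in Q808 and 15 lower, with a median of 0.020. Of all 15593 genes tested, 10851 were higher there, with a median of 0.157. The proteasome median thus stayed below that of all genes. There, 3 of the 40 passed an unadjusted p of 0.05 (12.7% of all genes), and these were again Psme1, Psme4 and Psme2, all higher in Q808.

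Q808 against Con. compares kindled and treated rats with rats that had neither. None of the 40 genes passed an unadjusted p of 0.05 in limma, alone or with more than 1.5-fold change (4.28% and 3.46% of all genes did), and the smallest adjusted p was 0.901. In Q808, 31 of the 40 genes were lower, against 44.7% of all genes, and the median difference was -0.094 against 0.045 over all genes. Without Q808-1 the median was 0.009. In 5 of the 40 genes the groups did not overlap (20% of all genes): Psme1, Psme2 and Pomp were higher in Q808, and Psmc2 and Psmd3 were lower. The 95% interval lay within 1.5-fold for 24 of the 40 genes (19.7% of all genes). In the 5 libraries, 1 of the 40, Psme4, passed an unadjusted p of 0.05 (5.73% of all genes), by 0.65 on the log2 scale (unadjusted p = 0.0316). Each pair of these 3 comparisons shares the libraries of a group, so their values are not independent of each other.

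**Figure D2:**
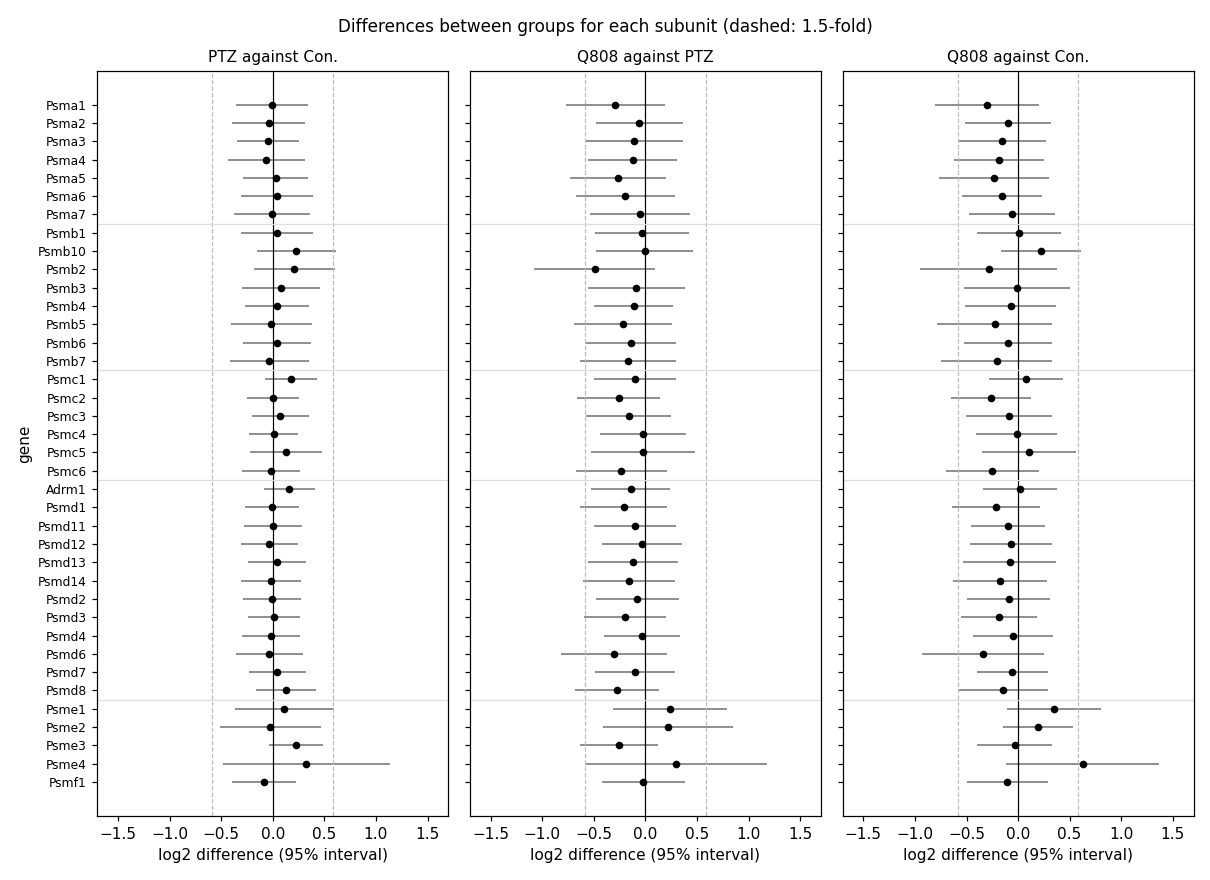
Difference between groups for each of the 38 subunits with a mean of at least 10 FPKM, on the log2(FPKM + 0.1) scale; points are limma estimates, horizontal bars 95% intervals and dashed lines 1.5-fold. Intervals include 0 for all 38 genes in all 3 panels, and Psme4 has the widest.

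Among the 7 tested alpha subunits, which form the gate of the core, mean levels ran from 34.1 FPKM for Psma3 to 115 for Psma7 with a median of 85.9. On the log2 scale, the differences lay between -0.061 and 0.041 in PTZ against Con., between -0.29 and -0.055 for Q808 set against PTZ, and between -0.30 and -0.061 for Q808 set against Con. Psma7 was measured at 129, 113 and 106 FPKM in the Con. libraries, 104, 105 and 138 in PTZ and 103 and 119 in Q808. Its groups overlapped throughout, and PTZ-3 was the highest library and Q808-1 the lowest. Psma3 was at 36.3, 36.5 and 33.2 FPKM in Con., 32.4, 32.0 and 38.7 in PTZ and 27.7 and 36.4 in Q808, with the same libraries at either end.

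The catalytic beta subunits had mean levels of 90.1 FPKM for Psmb6, 111 for Psmb5 and 124 for Psmb7, and all 3 were high and low in the same libraries. Psmb5, which carries the chymotrypsin-like activity, was at 131, 122 and 93.0 FPKM in Con., 106, 107 and 128 in PTZ and 85.6 and 111 in Q808. Psmb6, the caspase-like subunit, was at 99.0, 93.1 and 79.8 in Con., 88.8, 86.4 and 105 in PTZ and 77.6 and 91.6 in Q808. Psmb7, the trypsin-like subunit, was at 145, 139 and 105 in Con., 117, 119 and 141 in PTZ and 98.7 and 125 in Q808. In all 3 genes Con.-1 and Con.-2 lay above Con.-3, PTZ-3 above PTZ-1 and PTZ-2, and Q808-2 above Q808-1, so that the groups overlapped. The log2 differences in PTZ against Con. were -0.014 for Psmb5 (95% interval -0.41 to 0.38), 0.043 for Psmb6 (-0.28 to 0.37) and -0.036 for Psmb7 (-0.42 to 0.35). In Q808 against PTZ they were -0.21 (-0.69 to 0.26), -0.14 (-0.57 to 0.29) and -0.17 (-0.64 to 0.29).

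Psmb10 is the immunoproteasome counterpart of Psmb7 and is known to be induced by interferon gamma. It was at 18.4, 15.7 and 15.0 FPKM in Con., 17.4, 17.7 and 22.7 in PTZ and 19.9 and 18.2 in Q808. PTZ-3 was the highest library, and Con.-1 lay within the range of the PTZ and Q808 libraries. The log2 difference was 0.23 in PTZ against Con. (95% interval -0.15 to 0.61), 0.22 in Q808 against Con. (-0.17 to 0.61) and -0.006 in Q808 against PTZ (-0.48 to 0.46). In the 5 libraries with low striatum markers these were 0.047, 0.098 and 0.050. The level of Psmb10 was 11.3% to 14.3% of that of Psmb7 in the Con. libraries, 14.8% to 16.1% in PTZ, and 20.2% in Q808-1 and 14.5% in Q808-2. All PTZ and Q808 libraries were above the Con. libraries in this ratio, but Q808-2 at 14.5% was just above Con.-3 at 14.3%. Psmb7 had its lowest level, 98.7 FPKM, in Q808-1. In the 5 libraries with low striatum markers, Psmb7 differed by -0.26 in PTZ against Con. and by -0.18 in Q808 against Con. The ratio was not tested or set against ratios of other genes. Markers of T cells and other leukocytes lay between -1.47 and -0.67 on the log2(FPKM + 0.1) scale, lowest in PTZ-3 and highest in Q808-2.

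Of the other beta subunits, Psmb4, which the core needs for its assembly, had the highest mean, 126 FPKM. It was at 138, 134 and 108 in Con., 129.9, 129.4 and 129.6 in PTZ and 114 and 126 in Q808. Both Q808 libraries lay below all PTZ libraries, and the Con. libraries spanned both groups. Psmb2 had the highest coefficient of variation among the beta subunits with a mean of at least 10 FPKM. It was at 83.9, 84.5 and 61.5 FPKM in Con., 89.0, 97.7 and 77.7 in PTZ and 49.3 and 78.7 in Q808. In each group the library with high striatum markers was the lowest, and Q808-2 lay just above PTZ-3. Psmb2 had the smallest p of the 40 genes in Q808 against PTZ, where its log2 difference was -0.49 (SE 0.24, 95% interval -1.08 to 0.095, unadjusted p = 0.0867, adjusted p = 0.952 and 0.391 to 1 over the alternatives, limma with Benjamini-Hochberg). With the library set as a covariate, the difference was -0.42 (unadjusted p = 0.0284, limma). In the 5 libraries with low striatum markers it was -0.24. Psmb11 was at 0.586, 0.516 and 0.242 FPKM in Con., 0.394, 0.408 and 0.686 in PTZ and 0.184 and 0.334 in Q808, with a log2 difference of -0.73 in Q808 against PTZ (-1.84 to 0.39).

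The 6 ATPases, the unfolding ring of the regulatory particle, had mean levels from 40.0 FPKM for Psmc6 to 160 for Psmc5 and a median of 87.9. Psmc1 was at 110, 113 and 113 FPKM in Con., 123, 121 and 135 in PTZ and 125 and 111 in Q808. All PTZ libraries were above all Con. libraries. Q808-1 lay within the range of PTZ, and Q808-2 within that of Con. In PTZ against Con. the difference on the log2 scale was 0.18 (SE 0.11, 95% interval -0.080 to 0.43, unadjusted p = 0.148, limma). Psmc2 was at 94.2, 95.2 and 87.7 FPKM in Con., 89.7, 91.0 and 96.1 in PTZ and 69.7 and 85.0 in Q808, so that both Q808 libraries were below the other 6. Its log2 difference was -0.26 in both comparisons with Q808 (-0.67 to 0.15 against PTZ and -0.65 to 0.12 against Con.).

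Psmc5, the most abundant of all proteasome genes, was at 164, 153 and 138 FPKM in Con., 151, 155 and 194 in PTZ and 183 and 146 in Q808. Unlike most subunits it was high in Q808-1 as well as in PTZ-3. Psmc6 was at 44.5, 43.6 and 37.5 FPKM in Con., 41.5, 42.1 and 40.1 in PTZ and 30.4 and 40.5 in Q808. The 6 ATPases differed by -0.017 to 0.18 in PTZ against Con., by -0.26 to -0.021 in Q808 against PTZ and by -0.26 to 0.11 in Q808 against Con.

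The 12 non-ATPase subunits had mean levels from 24.6 FPKM for Psmd11 to 78.7 for Psmd4, a ubiquitin receptor, with a median of 59.4. Psmd4 had the lowest coefficient of variation of the 38 genes, at 88.3, 79.5 and 72.1 FPKM in Con., 78.7, 77.0 and 80.4 in PTZ and 74.0 and 80.0 in Q808. Psmd11 was at 26.3, 25.5 and 23.1 in Con., 24.9, 26.6 and 23.5 in PTZ and 21.8 and 24.9 in Q808. The groups overlapped for both genes.

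Adrm1, another ubiquitin receptor, was at 56.8, 53.8 and 51.9 FPKM in Con., 59.99, 60.7 and 60.8 in PTZ and 50.5 and 59.6 in Q808. All PTZ libraries were above all Con. and Q808 libraries. The log2 difference in PTZ against Con. was 0.16 (SE 0.10, 95% interval -0.084 to 0.41, unadjusted p = 0.165, limma). Psmd8, a lid subunit, was at 58.6, 57.2 and 47.7 FPKM in Con., 59.9, 61.3 and 56.8 in PTZ and 43.9 and 54.7 in Q808. It was lower in both Q808 libraries than in any PTZ library, with a log2 difference of -0.27 (SE 0.17, 95% interval -0.68 to 0.14, unadjusted p = 0.154, limma). The 12 subunits differed by -0.033 to 0.16 in PTZ against Con., by -0.31 to -0.032 in Q808 against PTZ and by -0.34 to 0.020 in Q808 against Con. The values furthest from 0 in both comparisons with Q808 were those of Psmd6, at 80.7, 78.6 and 61.2 FPKM in Con., 69.5, 70.5 and 74.0 in PTZ and 47.0 and 70.7 in Q808, where Q808-1 alone stood below the rest.

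Of the 5 activators and inhibitors, 3 had point estimates above 0 in each comparison with Q808, where most core and 19S genes lay below 0. Psme1 and Psme2 form the PA28 cap of the cytoplasm, which favours peptide production. Psme1 was at 37.7, 35.3 and 27.8 FPKM in Con., 32.9, 30.2 and 46.7 in PTZ and 39.9 and 45.1 in Q808. Both Q808 libraries were above all Con. libraries, and PTZ-3 was above both. Psme2 was at 18.3, 16.6 and 17.1 in Con., 14.7, 14.4 and 23.4 in PTZ and 20.7 and 19.01 in Q808, in the same order. For Psme1 the log2 difference was 0.35 in Q808 against Con. (SE 0.18, 95% interval -0.11 to 0.80, unadjusted p = 0.110, limma) and 0.24 in Q808 against PTZ (-0.32 to 0.79). For Psme2 these were 0.19 (-0.15 to 0.54) and 0.22 (-0.41 to 0.85).

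For both PA28 genes, Q808 against PTZ depended on PTZ-3. In the 5 libraries with low striatum markers, Psme1 was higher in Q808 than in PTZ by 0.51 on the log2 scale (SE 0.12, unadjusted p = 0.0114, adjusted p = 0.320) and Psme2 by 0.39 (SE 0.13, unadjusted p = 0.0368, adjusted p = 0.381; limma with Benjamini-Hochberg). Without PTZ-3 alone, the differences were 0.42 (unadjusted p = 0.0454) and 0.45 (unadjusted p = 0.0357). The adjusted p over all alternatives lay between 0.320 and 1 for Psme1 and between 0.381 and 1 for Psme2. Endothelial markers were at 4.20 in PTZ-3 and 4.57 in Q808-1 and at 3.20 to 3.61 in the other 6 libraries, and their part in these values was not tested.

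Psme4, the nuclear PA200 activator, was the least abundant activator and the most variable of the 38 genes with a mean of at least 10 FPKM. It was at 7.18, 8.85 and 13.0 FPKM in Con., 9.43, 9.20 and 18.9 in PTZ and 16.9 and 12.6 in Q808. The library with high striatum markers was the highest of each group, and both groups that received PTZ overlapped with Con. because of Con.-3. The log2 difference in Q808 against Con. was 0.63, or 1.54-fold (SE 0.30, 95% interval -0.12 to 1.37, unadjusted p = 0.0831, adjusted p = 0.901 and 0.407 to 1 over the alternatives, limma with Benjamini-Hochberg). This was 0.65 in the 5 libraries and 0.53 with the library set as a covariate (unadjusted p = 0.0166). For PTZ against Con. the value was 0.33 (-0.48 to 1.13). Q808 against PTZ gave 0.30 (-0.58 to 1.18) in the pooled fit, 0.43 in the 5 libraries (unadjusted p = 0.0421) and 0.64 without PTZ-3 alone (unadjusted p = 0.0297).

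Psme3, the nuclear PA28 subunit, was at 40.9, 40.2 and 36.0 FPKM in Con., 46.2, 46.6 and 44.0 in PTZ and 35.5 and 40.9 in Q808. All 3 PTZ libraries were above the other 5. The log2 difference was 0.22 in PTZ against Con. (SE 0.11, 95% interval -0.039 to 0.49, unadjusted p = 0.0834, adjusted p = 0.999 and 0.273 to 1 over the alternatives, limma with Benjamini-Hochberg) and -0.26 in Q808 against PTZ (SE 0.16, -0.64 to 0.12, unadjusted p = 0.148). It was -0.033 in Q808 against Con. (-0.39 to 0.33). Psmf1, an inhibitor of the core, lay between 20.9 and 26.0 FPKM in all libraries, and its differences lay between -0.10 and -0.019.

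**Figure D3:**
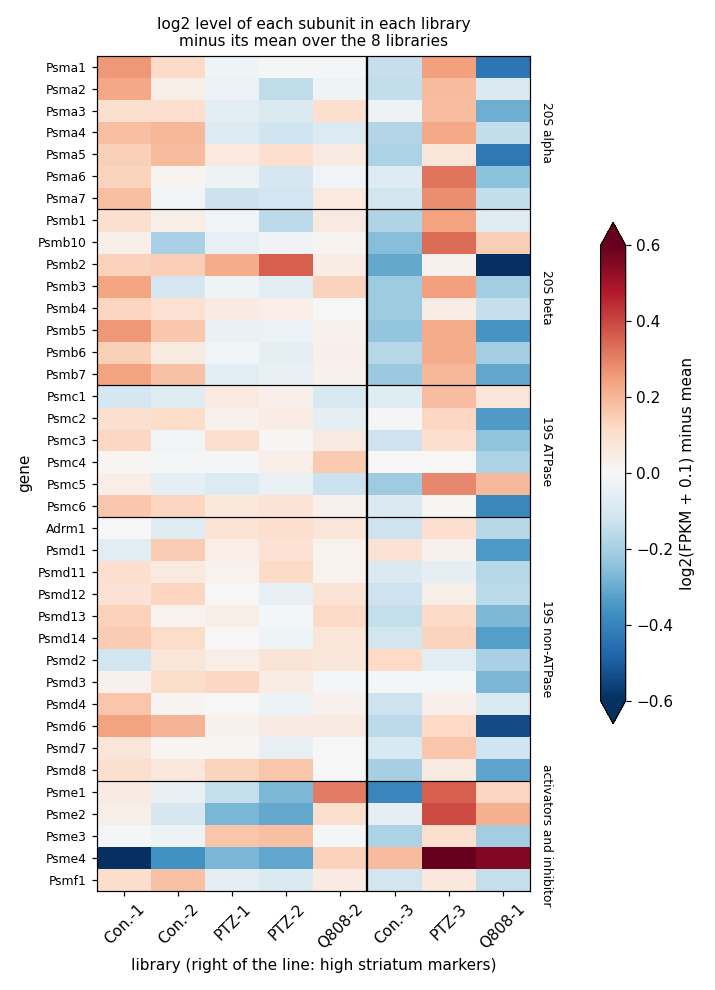
Level of each of the 38 subunits in each library on the log2(FPKM + 0.1) scale, minus the mean of the gene over the 8 libraries; rows are genes by role, columns libraries, and the 3 libraries with high striatum markers stand to the right of the line, with colours saturated at 0.6. Core and 19S genes are mostly low in Con.-3 and Q808-1 and high in Con.-1, while Psme4 is lowest in Con.-1 and highest in PTZ-3.

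Pomp was the gene with the clearest difference, at a low level. It was at 1.42, 1.06 and 0.478 FPKM in Con., 2.04, 1.99 and 3.14 in PTZ and 1.46 and 1.98 in Q808. All PTZ libraries were above all Q808 libraries, and these above all Con. libraries. The log2 difference in PTZ against Con. was 1.28 (SE 0.42, 95% interval 0.29 to 2.27, unadjusted p = 0.0185, adjusted p = 0.999 and 0.237 to 1 over the alternatives, limma with Benjamini-Hochberg). It was 0.84 in Q808 against Con. (SE 0.48, -0.37 to 2.04, unadjusted p = 0.138) and -0.44 in Q808 against PTZ (-1.30 to 0.42). In PTZ against Con. the unadjusted p lay between 0.0114 and 0.057 over the alternatives, and PTZ-3 was the library without which it was 0.057.

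The files list another gene, GeneID 100911238, which the authors' annotation describes as proteasome maturation protein-like and which lacks the pathway annotation. It was at 87.7, 17.4 and 40.3 FPKM in Con., 35.7, 76.5 and 18.0 in PTZ and 19.7 and 21.5 in Q808. Where such genes are alike in sequence, their reads can be divided between them in processing, so the level of Pomp is uncertain. The sum of both genes was 89.1, 18.5 and 40.8 FPKM in Con., 37.7, 78.5 and 21.2 in PTZ and 21.2 and 23.5 in Q808, and in this sum the groups overlapped. The other gene alone differed by -0.11 in PTZ against Con. (SE 0.69, unadjusted p = 0.879, limma).

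Core and regulatory particle were then compared as classes, with no test since the genes of a class were measured in the same libraries. The median log2 difference of the 16 tested core genes and of the 18 genes of the 19S particle was 0.034 and 0.006 in PTZ against Con., while Q808 differed by -0.13 and -0.13 from PTZ and by -0.15 and -0.088 from Con. Core minus 19S was therefore 0.027, -0.001 and -0.064. The median core level minus the median 19S level of a library, a related quantity, had an SD of 0.13 to 0.15 between rats. Taken from the deviation of each gene from its mean, core minus 19S ran from -0.083 to 0.071 in Con. and from -0.092 to 0.149 in PTZ. In Q808 it was -0.009 and 0.001. The 5 activators and inhibitors had medians of 0.11, 0.22 and 0.19.

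Within groups the classes followed the libraries. As the median log2 deviation from the mean of each gene, the core stood at 0.162, 0.098 and -0.185 in Con.-1 to Con.-3, -0.027, -0.050 and 0.225 in PTZ-1 to PTZ-3 and -0.227 and 0.026 in Q808. The 19S particle stood at 0.090, 0.061 and -0.102 in Con., 0.031, 0.042 and 0.076 in PTZ and -0.219 and 0.025 in Q808. Both classes were lowest in Q808-1, with Con.-3 next, and the core was more widely spread than the 19S particle in Con. and PTZ. The activators and inhibitors stood at 0.036, -0.044 and -0.108 in Con., -0.145, -0.268 and 0.358 in PTZ and 0.130 and 0.094 in Q808. They were thus above their mean in Q808-1, where core and 19S genes were lowest. Over all genes tested the deviation was 0.12 in PTZ-3 and -0.15 in PTZ-2, and between -0.074 and 0.060 in the other libraries.

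**Figure D4:**
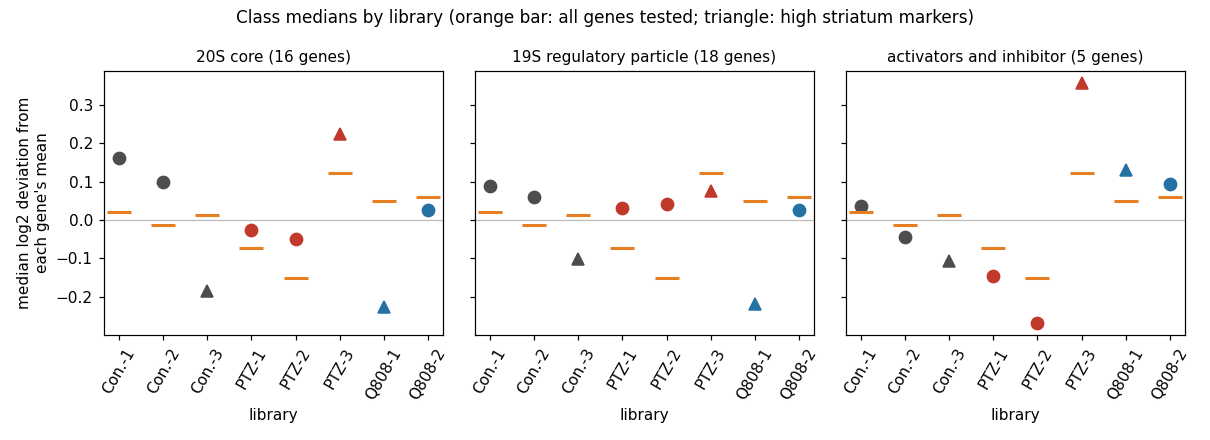
Median log2 deviation of the genes of each class from their means, by library; each point is 1 library, colours give the group, triangles mark high striatum markers and orange bars give the same median over all genes tested. In Q808-1 the core and 19S medians lie at -0.23 and -0.22, below the bar for all genes, and the activator median at 0.13 lies above it.

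The direction of the core in PTZ against Con. depended on which libraries were compared. Its median difference was -0.16 in the 5 libraries with low striatum markers, where 14 of 16 genes were lower in PTZ, and 0.40 between PTZ-3 and Con.-3, where all 16 were higher. The 19S particle gave -0.032 and 0.19, and all genes tested -0.11 and 0.11. In Q808 against PTZ the core gave 0.057 in the 5 libraries and -0.47 between Q808-1 and PTZ-3, where all 40 proteasome genes were lower in Q808-1. The 19S particle gave -0.007 and -0.28, and all genes tested 0.157 and -0.065. In Q808 against Con. the values were closer, at -0.10 and -0.066 for the core and -0.048 and -0.12 for the 19S particle. All genes tested gave 0.048 and 0.024. Comparisons of 1 library with 1 library have no replicate check.

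Genes that work with the proteasome but lie outside the annotation were read from the same fits. The list held 27 genes, of which 25 were found, comprising 7 assembly chaperones, 5 transcription regulators, 9 ubiquitin receptors, deubiquitinases and ligases, and 4 ubiquitin genes. None of the 25 passed an unadjusted p of 0.05 in PTZ against Con. (limma), where 3.78% of all genes did. In Q808 against PTZ 2 of the 25 did, both lower, and 2.19% of all genes. The median differences of the 25 genes were -0.004, -0.055 and -0.048 in the 3 comparisons, against -0.041, 0.097 and 0.045 over all genes. Nfe2l1 itself was at 49.3, 56.2 and 68.0 FPKM in Con., 54.6, 55.2 and 59.9 in PTZ and 66.7 and 53.7 in Q808, and its log2 differences were -0.021, 0.082 and 0.061 in the 3 comparisons (95% interval -0.37 to 0.32 in PTZ against Con.). Its highest library in each group was the one with high striatum markers.

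Zfand5, a zinc finger protein that binds the proteasome and stimulates it, was at 53.8, 47.7 and 40.9 FPKM in Con., 70.3, 81.5 and 48.3 in PTZ and 33.3 and 45.6 in Q808. Both Q808 libraries lay below all PTZ libraries. The log2 difference in Q808 against PTZ was -0.74 (SE 0.27, 95% interval -1.40 to -0.077, unadjusted p = 0.0339, adjusted p = 0.952 and 0.294 to 1 over the alternatives, limma with Benjamini-Hochberg), and in PTZ against Con. it was 0.46 (-0.042 to 0.97). In the 5 libraries these were -0.73 and 0.58. The latter had an unadjusted p of 0.00269 and an adjusted p of 0.104 (limma with Benjamini-Hochberg). In that fit of PTZ against Con., 19.5% of all genes were at an unadjusted p under 0.05.

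Psmd5, a chaperone of 19S assembly, was at 12.9, 12.2 and 12.9 FPKM in Con., 15.1, 16.4 and 13.6 in PTZ and 8.76 and 11.7 in Q808. All PTZ libraries were above all Con. libraries, which were above all Q808 libraries. Psmd5 differed by -0.56 on the log2 scale in Q808 against PTZ (SE 0.21, 95% interval -1.07 to -0.045, unadjusted p = 0.0372, adjusted p = 0.952 and 0.381 to 1 over the alternatives, limma with Benjamini-Hochberg). Without Q808-1, the unadjusted p was 0.180 for Psmd5 and 0.181 for Zfand5.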

How the data were processed

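Libraries were trimmed by the authors with Trimmomatic, and the deposited FPKM per gene were computed by the authors with Cufflinks. The submitters' processing notes also name HISAT2, Bowtie2, StringTie, SAMtools, HTSeq and DESeq, without roles; genome build and versions are not given in the sources used here. No counts were used, so counting error is unknown. Low FPKM values come in steps, which gave depths of 0.853 to 1.19 times that of Con.-1, and summed FPKM was 362840 to 402556. Spearman correlations between libraries were 0.966 to 0.986.

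Symbols came from RefSeq (GRCr8) by gene identifier for 20633 genes, for names and promoters only. The 15593 genes with a mean of at least 0.1 FPKM were tested on log2(FPKM + 0.1), a scale that understates changes of low genes, with limma 3.58.1 (empirical Bayes with a trend, R 4.3.3), each comparison on its own 2 groups, and Benjamini-Hochberg adjustment over all genes. The script was tested on simulated data with noise below the residual spread of these data, so its power at the real spread was not tested. Tables and figures used matplotlib 3.10.9, scipy 1.17.1, pandas 2.3.3 and numpy 2.4.6 in Python 3.11.15. In PTZ against Con., deviations of same-numbered libraries correlated at 0.212, 0.299 and 0.422, and those of differently numbered libraries at -0.427 to 0.322. The highest value was that of Con.-3 and PTZ-3, which both have high striatum markers. The labels do not say that a number marks a pair.

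Named genes were, in each comparison, those at an unadjusted p under 0.05 and at least the 3 with the smallest p, the catalytic subunits and Psmb10, the highest and lowest gene of each role, companion genes at an unadjusted p under 0.05, of which 1 is not reported here, and Nfe2l1. Psma4, Psma5, Psmc2, Psmd1, Psmd3, Psmd6, Psmf1 and Sem1 were added after their values were seen, as were the promoter motifs. The members and lists were chosen with earlier results of these data known, including the striatum markers that set 3 libraries apart. Paaf1 and Ecpas of the companion list were not found by symbol. The other marker lists ranged, on the log2(FPKM + 0.1) scale, from 6.32 to 7.05 for astrocytes, 1.23 to 6.41 for choroid plexus and 2.33 to 4.65 for erythroid cells. Alternatives were a pseudocount of 1, no filter, all groups in 1 fit, a block by replicate number, scaling by median ratios, quantile normalization, the library set as a covariate, the 5 libraries with low striatum markers, and each library left out.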

Additional observations from a re-analysis of the deposited data

How the results depend on the processing

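Of the medians and counts of genes under an alternative, 105 stayed within 1 SD between libraries or within 1.5 times the count, and 21 did not. For PTZ against Con., 1 gene at an unadjusted p under 0.05 became 2 with no filter and with the library set as a covariate (Pomp and Psme3), 4 without the 3 libraries with high striatum markers, and 0 to 1 with each library left out. The median of the proteasome genes moved from 0.020 to -0.081 without the 3 libraries and to 0.27 within them, an alternative chosen after seeing the data, and core minus 19S from 0.027 to -0.13 and 0.20. For Q808 against PTZ, 0 genes became 2 with quantile normalization (Pomp and Psmb11, both lower), 1 with the covariate (Psmb2), 3 without the 3 libraries and 0 to 5 with each library left out; the median within the 3 libraries was -0.35 and core minus 19S -0.19. For Q808 against Con., 0 genes became 3 with the covariate (Pomp, Psme1 and Psme4), 1 without the 3 libraries (Psme4) and 0 to 1 with each library left out. Left-out libraries gave medians of -0.036 to 0.081, -0.26 to -0.022 and -0.21 to 0.009 in the 3 comparisons. With the replicate block, PTZ against Con. kept 1 gene, Pomp (unadjusted p = 0.0267, limma), and no other call there changed. In both comparisons with Q808 the block gave 1 gene, Psme4. No Q808 library has number 3, so the block there repeats the estimates without PTZ-3 or without Con.-3. For Psme4 these were 0.64 against PTZ and 0.86 against Con., and the block is not a separate check of them. Correlations of same-numbered libraries were of both signs there (-0.295 and 0.322 against PTZ, -0.379 and 0.527 against Con.). Under quantile normalization the median core difference in PTZ against Con. was -0.014. The share of all genes called is given above for the 5 libraries and, in Q808 against PTZ, without Q808-2. For the other alternatives that share is not given, so their counts of genes cannot be set against all genes. The causes of these changes were not tested. Except in the fits without the 3 libraries or without 1 of a pair, each group had 2 or 3 libraries; with 1 Q808 library, its spread is taken from the other group.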
